A study of Homo sapiens with 18 samples.

Results

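The question asked of these RNA-seq libraries was which genes showed a different effect of losing beta-globin at 5 d of erythroid differentiation than at 48 h. For every gene, the difference between HBBko and WT cells at 5 d was compared with the same difference at 48 h, and the change between them is called the interaction here. It was taken as (HBBko minus WT at 5 d) minus (HBBko minus WT at 48 h) on the log2(scaled TPM + 1) scale, so a positive value means that HBBko moved up relative to WT between the stages and a negative value that it moved down. Where no line is named below, rose and fell refer to this interaction in genes that passed its test, and each value is given ± its standard error. It was measured in 12 of the series' 18 libraries and tested in the 11407 of 35616 listed genes that reached at least 1 scaled TPM in at least 3 of those 12 libraries.

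All libraries came from HUDEP-2, an established line of umbilical cord derived erythroid progenitors that makes mainly adult globin. The 4 groups were WT-HUDEP-2 after 48 hours of differentiation, HBBko after 48 hours, WT-HUDEP-2 after 5 days and HBBko after 5 days, with 3 libraries in each. HBBko cells are HUDEP-2 cells with a knockout of HBB, the gene of beta-globin, and share the parental line with WT. The labels used here do not give the number of clones behind HBBko, nor whether the triplicates were independent cultures, so p values measure the spread between these libraries, which may be technical.

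Adult hemoglobin pairs alpha chains with beta chains, and fetal hemoglobin pairs alpha chains with gamma chains. Alpha chains left without a partner carry reactive heme and precipitate, which puts erythroid precursors under oxidative and proteotoxic load. Phosphorylation of eIF2alpha, in erythroid cells mainly by the heme-regulated kinase EIF2AK1, raises translation of the transcription factor ATF4, which switches on genes of amino acid supply, while heme itself releases the repressor BACH1 from antioxidant genes such as HMOX1.

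HBB served first as a check of the groups, because the lines go by thal and wen in the data columns, which were read as HBBko and WT. Its levels were 99196, 103106 and 132741 scaled TPM in WT at 48 h and 22101, 22926 and 24265 in HBBko at 48 h. At 5 d they were 431427, 427628 and 458719 in WT and 69004, 70764 and 72650.4 in HBBko. HBB was thus lower in every HBBko library than in any WT library of its stage, and its transcript remained present in HBBko cells.

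The libraries differed in composition as well as in single genes. The files used here hold no read counts, so depth is unknown. The scaled TPM of a library summed to between 847705 and 984482 at 48 h and between 1152839 and 1508342 at 5 d, lower in HBBko at both stages. Globin transcripts took 20.2% to 24.7% of that sum in WT and 13.0% to 13.7% in HBBko at 48 h, and 50.5% to 52.1% against 38.7% to 39.9% at 5 d. Transcripts of the mitochondrial genome took 5.04% to 5.72% against 7.18% to 7.79% at 48 h and 1.34% to 1.46% against 2.29% to 2.97% at 5 d. Replicate 3 of WT at 48 h stood apart in HBB and more widely, with the lowest weight (0.43) in the fit with library weights. Its levels over all tested genes correlated at 0.900 with replicate 1 of WT at 5 d, against 0.881 and 0.882 for replicates 1 and 2. It was likewise closer than those replicates to every other library at 5 d. Without replicate 3 of WT at 48 h 3906 genes passed the interaction test, against 4106 with it. In such bulk libraries, fewer cells of a type and less RNA per cell cannot be told apart.

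All 14 erythroid markers were present, each with a mean above 100 scaled TPM in every group. They were not even between the lines: by limma 8 were lower and 0 higher in HBBko at 48 h (also 0 unadjusted). At 5 d 3 were lower and 2 higher. The interaction was positive for all 14 (median 0.25) and called for 4 of them (28.6%, against 36% of all tested genes). Of other cell types, 0 of 13 lymphoid markers passed the filter on low values, with CD3E, MS4A1 and CD2 at 0. Of 15 megakaryocyte markers 2 passed, with PF4, PPBP and SELP at 0, and the summed level of the list was 8.21 to 10.7 scaled TPM in WT and 7.50 to 9.03 in HBBko at 48 h, then 26.7 to 29.3 and 32.8 to 41.3 at 5 d. Both that passed, GP1BB and TUBB1, had a positive interaction (0.85 and 0.53). Of 17 mast cell, basophil and eosinophil markers 5 passed, with CLC at 0 and sums of 80.2 to 87.0, 89.1 to 94.8, 56.7 to 68.3 and 56.1 to 78.1 in the same order of groups, and 3 of them (KIT and the near-identical tryptase genes TPSAB1 and TPSB2) fell in the interaction. KIT had an adjusted p of 0.052 with the libraries paired by number within each stage. The calls of TUBB1, KIT and TPSB2 were each lost in fits without 1 library, as low as 0.47 (adjusted p = 0.078) for TUBB1 without replicate 2 of HBBko at 5 d, -0.19 (adjusted p = 0.083) for KIT without replicate 3 of WT at 48 h and -0.45 (adjusted p = 0.08) for TPSB2 without replicate 3 of WT at 5 d. Of 17 myeloid markers 2 passed, with CTSG and S100A9 at 0 and sums from 5.06 to 13.4, with CD68 falling (-0.64 ± 0.22, adjusted p = 0.042) and no longer called in fits without 1 library, down to -0.50 (adjusted p = 0.097) without replicate 3 of HBBko at 5 d, and 2 of 14 stromal and endothelial markers passed. The part of these cells, of globin share and of mitochondrial share in the results was not tested.

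The genotype effect changed between the stages for 36% of tested genes. The interaction passed in 4106 of 11407 genes (limma, Benjamini-Hochberg adjusted p under 0.05), 2008 of them higher in HBBko relative to WT at 5 d (17.6%) and 2098 lower (18.4%), and these shares are the background for every count below. The change was at least 2-fold in 237 genes (2.08%), 96 of them higher and 141 lower. The median interaction over all tested genes was 0.01. The split by direction rested on the scaling: after rescaling every library to the same sum, 4013 genes were higher and 1004 lower, with a median of 0.16, and 2976 of the 4106 genes stayed called in the same direction.

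Most of these genes had a gap between the lines at 5 d that had not been called at 48 h. That pattern held for 2502 of the 4106 genes (60.9%), 1229 with a positive interaction and 1273 with a negative one. A further 784 genes had a gap of the same sign at both stages that was wider at 5 d, and 74 had one that was narrower. The gap was called at 48 h alone for 386 genes, and 245 genes had called effects of opposite sign at the 2 stages. Between the stages 85.7% of all tested genes changed in WT (33.5% rising and 52.2% falling) and 84.7% in HBBko (32.9% and 51.8%). By line, 254 of the 4106 genes rose from 48 h to 5 d in WT without a called change in HBBko, 150 rose in WT and fell in HBBko, 253 fell in WT without a called change in HBBko and 97 fell in WT and rose in HBBko. Over all genes, HBBko and WT differed in 3355 (29.4%) at 48 h and in 6919 (60.7%) at 5 d, and both counts use the same 12 libraries as the interaction.

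**Figure D1:**
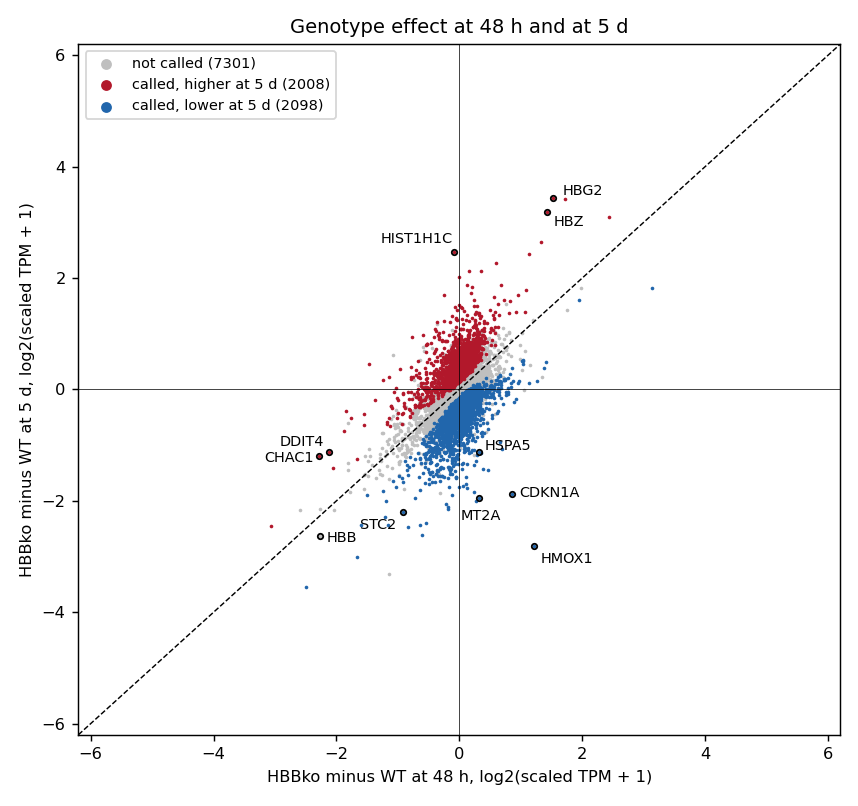
Difference between HBBko and WT at 48 h (horizontal axis) and at 5 d (vertical axis), both in log2(scaled TPM + 1), for the 11407 tested genes. Points above the dashed line of equal effects moved up in HBBko relative to WT between the stages. The 2008 genes called higher are red, the 2098 called lower are blue, and HMOX1 lies at 1.22 and -2.81.

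**Figure D2:**
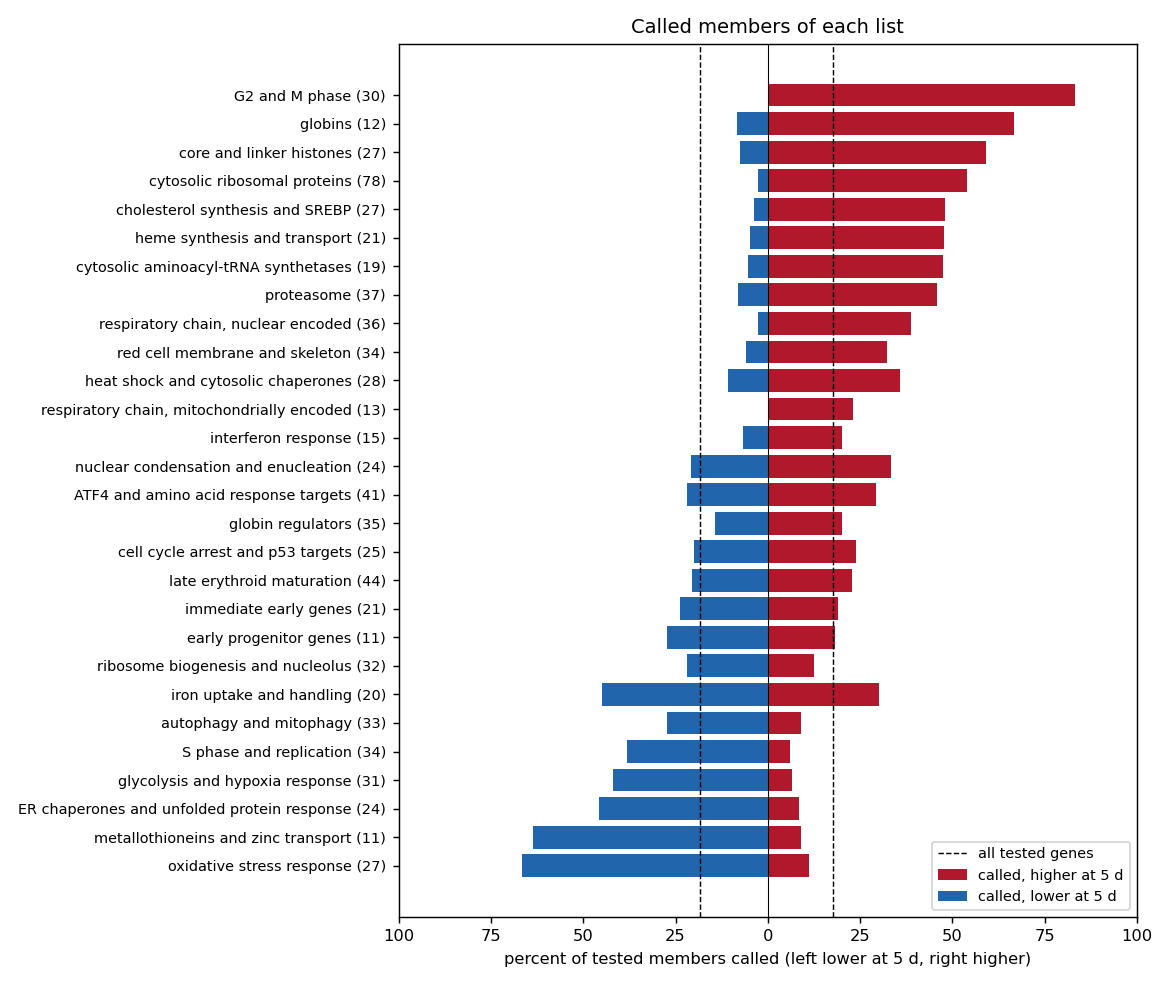
Percent of the tested members whose interaction was called higher (right) or lower (left) in each gene list with at least 10 tested members other than cell type markers, with the number tested in brackets. The dashed lines mark all tested genes at 17.6% and 18.4%. Among the lists shown, G2 and M phase, globin and histone genes lie farthest to the right, and oxidative stress genes and metallothioneins farthest to the left.

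Antioxidant and heme-degrading genes had the largest share of falls among the 34 lists. Of 27 tested genes of the oxidative stress response, 18 fell in the interaction and 3 rose, with a list median of -0.43 against 0.01 over all genes. At 48 h the list was balanced between the lines (7 higher and 6 lower in HBBko), whereas at 5 d 18 were lower in HBBko and 4 higher. In WT the median member rose by 0.63 between the stages and in HBBko by 0.22, on the log2 scale.

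HMOX1 (chromosome 22, 35380361 to 35394214, plus strand, GRCh38) encodes heme oxygenase 1, which breaks heme down, and had the most negative interaction of all genes named here. It stood at 6.11, 5.59 and 5.22 scaled TPM in WT and 15.6, 14.6 and 13.3 in HBBko at 48 h, and at 78.4, 106 and 110.1 in WT and 13.7, 15.2 and 10.4 in HBBko at 5 d. Every HBBko library was above every WT library at 48 h and below every one at 5 d. WT rose by 3.89 on the log2 scale between the stages, while HBBko had no called change. The interaction was -4.03 ± 0.19 (adjusted p = 2.2e-07), from an HBBko minus WT difference of 1.22 at 48 h to -2.81 at 5 d. Both ferritin chains, which store iron, rose in WT more than in HBBko. FTH1 went from 5639, 5721 and 5923 to 11782, 11615 and 12501 in WT and from 4929, 5226 and 5351 to 6441, 6178 and 6394 in HBBko, an interaction of -0.76 ± 0.06 (adjusted p = 8.7e-06), and FTL gave -0.82 ± 0.07 (adjusted p = 1e-05).

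The thioredoxin and glutathione systems shared this direction in part. Thioredoxin (TXN) overlapped between the lines at 48 h (means of 193 and 199.9 scaled TPM in WT and HBBko) and was lower in HBBko at 5 d (149 against 232), with an interaction of -0.69. The thioredoxin reductase TXNRD1 (-0.81), the sulfiredoxin SRXN1 (-0.72), glutathione reductase GSR (-0.80) and the pentose phosphate enzyme PGD (-0.86) fell too. So did GPX4, which detoxifies lipid peroxides (-0.83 ± 0.07, adjusted p = 7.8e-06), and the transcription factor NFE2L2, which drives antioxidant genes (-0.49). The exceptions were PRDX2, the most abundant red cell peroxiredoxin, which was 1.28-fold lower in HBBko at 48 h and 1.11-fold higher at 5 d (0.50 ± 0.07, adjusted p = 0.00026), together with GPX1 (0.67) and PRDX3 (0.27). BACH1, the heme-sensing repressor, rose (0.27), a call lost in the fit to all 18 libraries (adjusted p = 0.06).

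**Figure D3:**
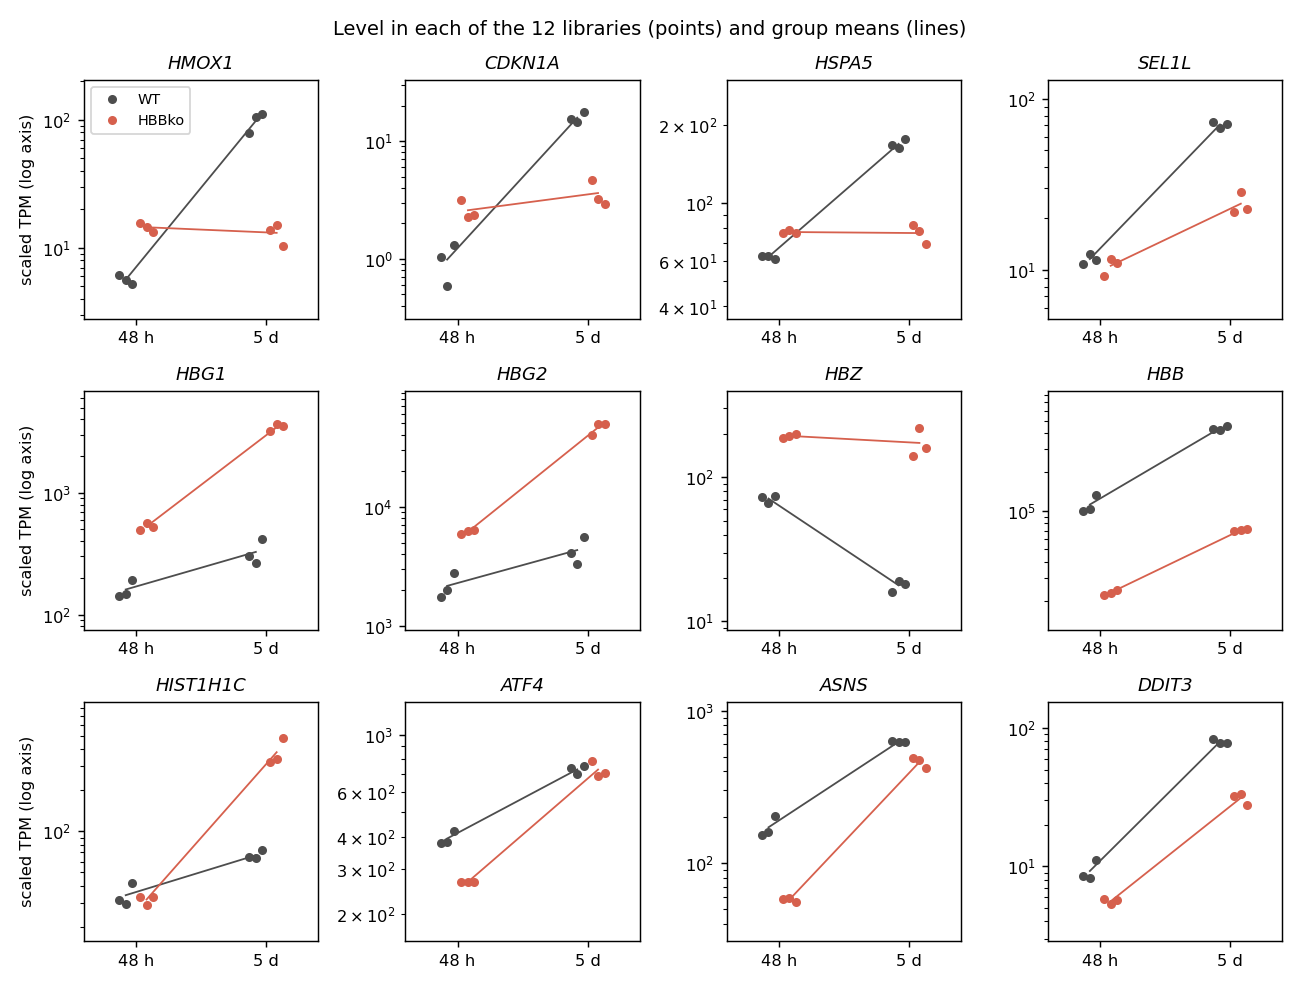
Level of 12 genes in scaled TPM on a log axis in each of the 12 libraries (points; grey WT, red HBBko), with lines joining the group means at 48 h and 5 d. HMOX1, CDKN1A and HSPA5 cross between the stages with no overlap of the lines at either, HBG1, HBG2 and HBZ spread apart, and ATF4 and ASNS come closer together.

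Metallothioneins are small cysteine-rich proteins that bind zinc and copper. MT2A, MT1G, MT1X and MT1E fell in both lines between the stages, and further in HBBko. Of 11 tested genes of metallothioneins and zinc transport, 7 fell in the interaction and 1 rose, with a list median of -0.99. MT2A stood at 41.9, 39.8 and 37.5 scaled TPM in WT and 55.5, 48.2 and 46.3 in HBBko at 48 h, and at 18.2, 20.5 and 22.1 and 4.36, 6.28 and 3.21 at 5 d. HBBko libraries were all above WT at 48 h, by a margin that did not pass the test (adjusted p = 0.13), and all below it at 5 d. The interaction was -2.27 ± 0.21 (adjusted p = 1.4e-05).

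MT1G fell from 114, 105 and 87.6 scaled TPM to 9.71, 7.44 and 15.4 in WT and from 122, 119.7 and 125 to 2.55, 1.65 and 1.42 in HBBko (-2.27 ± 0.28, adjusted p = 9.7e-05). MT1X gave -1.91 ± 0.20 (adjusted p = 2.7e-05), MT1E -1.81 ± 0.31 (adjusted p = 0.00081), and MT1H -1.22 ± 0.22 (adjusted p = 0.0013). MT1F (-0.64 ± 0.19, adjusted p = 0.021) and MT1A (-0.99 ± 0.33, adjusted p = 0.034) were low and their calls were less stable, at -0.58 (adjusted p = 0.055) for MT1F and -0.88 (adjusted p = 0.08) for MT1A without replicate 1 of HBBko at 48 h, and MT1A had an adjusted p of 0.053 with the pairing by number within each stage. These genes are close copies of one another on chromosome 16, so reads may have been shared between them and the split within the family is uncertain. The single member that rose was SLC30A1, which exports zinc from the cell (48.0, 49.1 and 43.4 in WT and 64.3, 59.3 and 58.9 in HBBko at 5 d, interaction 0.55 ± 0.11, adjusted p = 0.0018).

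Metallothionein genes are switched on through short metal response elements, and the promoters of MT2A and MT1X are shown because both genes moved together here. The runs are the 250 bases before the RefSeq start (GRCh38.p14; MT2A chr16:56608334-56608583, plus strand; MT1X chr16:56682220-56682469, plus strand), 5′ to 3′ on the gene's strand, with matches to the core TGCACNC or TGCGCNC on either strand in capitals.
MT2A: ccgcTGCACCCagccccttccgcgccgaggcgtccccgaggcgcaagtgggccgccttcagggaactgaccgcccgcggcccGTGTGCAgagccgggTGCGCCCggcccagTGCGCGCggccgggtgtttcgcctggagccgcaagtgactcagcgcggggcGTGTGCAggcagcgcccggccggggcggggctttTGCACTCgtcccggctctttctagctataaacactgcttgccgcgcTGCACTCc
MT1X: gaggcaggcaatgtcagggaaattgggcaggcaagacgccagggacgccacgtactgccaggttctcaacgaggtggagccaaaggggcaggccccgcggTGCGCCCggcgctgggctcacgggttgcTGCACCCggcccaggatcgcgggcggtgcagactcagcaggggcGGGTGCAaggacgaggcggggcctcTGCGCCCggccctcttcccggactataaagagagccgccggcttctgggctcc
MT2A held 7 such matches and MT1X 4. Of the 7 list members with a promoter in the RefSeq table, 4 held at least 1, against 24.7% of the 27305 promoters in the table. All 4 were called, with MT2A, MT1X and MT1H falling and SLC30A1 rising. These cores, like the other motifs below except that of ATF4, were chosen after the values had been seen, and a match is a description of letters, not of binding.

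Genes of the endoplasmic reticulum stress response held more falls than rises. Of 24 tested genes of the unfolded protein response, 11 fell in the interaction and 2 rose (median -0.19), and 7 fell after rescaling to equal sums. At 48 h 8 were higher and 3 lower in HBBko, and at 5 d 6 were higher and 12 lower. HSPA5 (chromosome 9, 125234853 to 125241330, minus strand) encodes BiP, the main chaperone of that compartment. It stood at 62.7, 62.8 and 60.6 scaled TPM in WT and 76.3, 79.0 and 76.6 in HBBko at 48 h, and at 167, 162 and 176 in WT and 82.5, 77.7 and 69.5 in HBBko at 5 d. WT rose 2.72-fold between the stages and HBBko had no called change, and the lines did not overlap at either stage. The interaction of HSPA5 was -1.44 ± 0.08 (adjusted p = 4.3e-07).

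SEL1L, part of the machinery that extracts misfolded proteins for degradation, rose from 10.9, 12.4 and 11.4 to 73.0, 67.8 and 71.8 in WT and from 9.21, 11.6 and 10.96 to 21.9, 28.7 and 22.6 in HBBko (-1.39 ± 0.14, adjusted p = 2.1e-05). The lines overlapped at 48 h and were apart at 5 d. The transcription factor XBP1 (-0.67), the lectin chaperone CALR (-0.57), the secreted factor MANF (-0.88), and EDEM1, which marks misfolded glycoproteins for disposal (-0.68), fell as well. The stress sensor ERN1 fell (-0.60), a call lost after rescaling to equal sums (-0.40). DNAJB11 (0.32) and DERL3 (0.61) rose.

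The promoter of HSPA5 carries an endoplasmic reticulum stress element, CCAAT and CCACG held 9 bases apart, through which ATF6 and NF-Y act, and it is shown because HSPA5 leads the list. The run is given as the 250 bases before the start (GRCh38.p14, chr9:125241344-125241593, minus strand), with the match in capitals.
HSPA5: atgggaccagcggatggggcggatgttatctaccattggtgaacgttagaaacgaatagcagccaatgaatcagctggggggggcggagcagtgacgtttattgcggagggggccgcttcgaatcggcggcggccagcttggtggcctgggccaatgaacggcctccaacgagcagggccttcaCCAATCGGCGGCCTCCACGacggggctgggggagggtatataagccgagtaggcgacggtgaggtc
The match began 66 bases before the start. Among the 22 list members with a RefSeq promoter, 7 held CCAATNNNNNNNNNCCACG on either strand, against 0.0806% of all 27305 promoters. Of the 6 tested members that held it, 4 were called in the interaction, HSPA5, CALR, CANX and XBP1. All 4 had fallen, CANX without a call after rescaling to equal sums (-0.11). In the whole list 13 of 24 tested genes were called and 11 of them had fallen.

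The fetal and embryonic globin genes and HBD rose, while HBB, HBA1 and HBA2 did not pass the test and HBQ1 fell. Of 12 tested genes on the list of globins and AHSP, 8 rose in the interaction and 1 fell (median 0.73). The fetal gamma-globin genes, which lie in the beta-globin cluster on chromosome 11, were higher in HBBko at both stages and the gap widened. HBG2 stood at 1764, 1994 and 2763 scaled TPM in WT and 5879, 6247 and 6339 in HBBko at 48 h, and at 4103, 3319.6 and 5582 and 39927, 49323 and 48863 at 5 d. The HBBko mean was 2.83-fold that of WT at 48 h and 10.6-fold at 5 d, with no overlap at either stage. The interaction of HBG2 was 1.91 ± 0.25 (adjusted p = 0.00015). HBG1 gave 1.70 ± 0.21 (adjusted p = 7.9e-05), from 528 against 161 at 48 h to 3449 against 327 at 5 d. The 2 genes are near-identical, and how reads were shared between them is uncertain.

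The embryonic globins parted in another way. HBZ, the embryonic alpha-like chain, fell in WT from 72.9, 66.6 and 73.9 scaled TPM to 16.0, 19.2 and 18.2, while in HBBko it was 186, 194 and 200.4 at 48 h and 141, 218 and 159.9 at 5 d. HBBko was above WT in every library, and the change within HBBko was not called. The interaction was 1.76 ± 0.17 (adjusted p = 1.8e-05). HBE1, the embryonic beta-like chain, was low throughout and rose in HBBko from 4.12, 4.01 and 4.21 to 12.2, 18.1 and 14.6, against 1.49, 1.26 and 1.24 and 1.72, 2.03 and 2.07 in WT (1.29 ± 0.16, adjusted p = 8.4e-05). The transcribed pseudogene HBBP1 gave 0.67 ± 0.12 (adjusted p = 0.0012).

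HBD, the minor adult delta chain next to HBB, closed a gap instead. It stood at 62.7, 67.5 and 94.4 scaled TPM in WT and 27.2, 24.8 and 32.0 in HBBko at 48 h, and at 538, 549 and 540.4 and 482, 473 and 465 at 5 d. HBBko was 2.67-fold lower at 48 h and 1.15-fold lower at 5 d, where the adjusted p of the gap was 0.18, and the interaction was 1.17 ± 0.17 (adjusted p = 0.00028). HBM, an alpha-like gene, rose (0.79 ± 0.13, adjusted p = 0.00056). AHSP, the chaperone of free alpha chains, rose too (0.40 ± 0.09, adjusted p = 0.0042) and lost its call under quantile normalization (0.04, adjusted p = 0.7). HBQ1, a little studied alpha-like gene, was the list member that fell (-0.26 ± 0.07, adjusted p = 0.012), a call lost after rescaling to equal sums (-0.06).

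HBB itself and the alpha genes did not pass. The interaction of HBB was -0.37 ± 0.14 (adjusted p = 0.062), and without replicate 3 of WT at 48 h it was -0.50 with an adjusted p of 0.0013. With the libraries paired by number within each stage the interaction of HBB was called (adjusted p = 0.031). HBA1 gave 0.21 ± 0.13 (adjusted p = 0.22) and HBA2 0.26 ± 0.14 (adjusted p = 0.16), 2 genes with near-identical transcripts, and rescaling to equal sums put both past the threshold (0.41 and 0.46).

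Among regulators of globin genes the counts were near the background. Of 35 tested, 7 rose and 5 fell, with a median of -0.00, and 18 rose and 1 fell after rescaling to equal sums. LMO2 and LDB1, partners in the complex that bridges the locus control region to globin promoters, rose. LMO2 was 190.4, 191 and 193 scaled TPM in WT and 183, 185 and 183 in HBBko at 48 h, and 112, 121 and 118 and 179, 181 and 181 at 5 d, so it fell in WT with no called change in HBBko (0.68 ± 0.04, adjusted p = 1.4e-06). LDB1 gave 0.51 ± 0.07 (adjusted p = 0.00024). The gamma-globin repressor SOX6 was lower in HBBko at 48 h (10.9 against 17.2 on average) and overlapped WT at 5 d (60.8 against 56.1), with an interaction of 0.71 ± 0.13 (adjusted p = 0.0016). NFIX, another factor tied to fetal globin silencing, fell further behind (-0.43 ± 0.05, adjusted p = 4.5e-05), and the NuRD subunit GATAD2A fell (-0.38), a call lost after rescaling to equal sums (-0.19).

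BCL11A, MYB, ZBTB7A, KLF1, GATA1 and EIF2AK1 did not pass the test of the interaction, and the signs of MYB, ZBTB7A, KLF1 and EIF2AK1 turned with the scaling. BCL11A, the main gamma-globin repressor, was 13.0 and 8.59 scaled TPM at 48 h and 21.8 and 12.4 at 5 d in WT and HBBko (interaction -0.22 ± 0.11, adjusted p = 0.14), and it was called without replicate 2 of WT at 5 d (-0.31, adjusted p = 0.018). MYB, which keeps progenitors dividing, gave -0.12 ± 0.09 (adjusted p = 0.29), and 0.04 after rescaling to equal sums. ZBTB7A gave -0.01 ± 0.09 (adjusted p = 0.93), KLF1 0.07 ± 0.07 (adjusted p = 0.47), GATA1 0.05 ± 0.06 (adjusted p = 0.5) and EIF2AK1, the heme-regulated kinase, -0.19 ± 0.09 (adjusted p = 0.11). EIF2AK1 was called without replicate 3 of WT at 48 h (-0.27, adjusted p = 0.0044) and with the pairing by number within each stage (adjusted p = 0.037). For KLF1 and GATA1 the interaction was called after rescaling to equal sums (0.27 and 0.25).

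ATF4 and its targets did not move as one. Of 41 tested ATF4 and amino acid response genes, 12 rose in the interaction and 9 fell, with a median of 0.02. After rescaling to equal sums 20 rose and 5 fell, and in a fit to all 18 libraries 7 rose and 7 fell. Falls outnumbered rises with a pseudocount of 5 (8 rose and 14 fell) and with library weights (11 and 12). They also did so without replicate 3 of WT at 48 h (10 and 13) and without replicate 1 of HBBko at 5 d (9 and 11). The list as a whole was lower in HBBko at both stages, with 35 members lower and 0 higher at 48 h by limma (also 0 at an unadjusted p under 0.05) and 33 lower and 1 higher at 5 d. Members that came closer to WT included ATF4 itself and genes of amino acid supply, and members that fell further behind included DDIT3 and ATF5.

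ATF4 (chromosome 22, 39519695 to 39522685, plus strand) itself closed its gap. Its levels were 377, 383 and 422 scaled TPM in WT and 268, 266 and 268 in HBBko at 48 h, and 742, 701 and 753 and 792, 688 and 712 at 5 d. HBBko lay below WT in every library at 48 h and overlapped it at 5 d. The interaction was 0.55 ± 0.08 (adjusted p = 0.0002). These are transcript levels, and ATF4 is controlled largely at translation.

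PSAT1, of serine synthesis, was 90.1, 97.7 and 111 in WT and 28.7, 30.6 and 26.4 in HBBko at 48 h, and 258, 248 and 256 and 186, 183 and 164 at 5 d (1.25 ± 0.10, adjusted p = 7.8e-06). HBBko stayed lower but by 1.43-fold in place of 3.48-fold. ASNS, asparagine synthetase, went the same way, 2.98-fold lower in HBBko at 48 h and 1.36-fold at 5 d (1.11 ± 0.12, adjusted p = 4.1e-05). The mTORC1 brake DDIT4 (1.00 ± 0.16, adjusted p = 0.00054), the cystine carrier SLC7A11 (0.86 ± 0.15, adjusted p = 0.00079) and CHAC1, which cleaves glutathione (1.08 ± 0.19, adjusted p = 0.0011), narrowed too. CHAC1 lost its call with a pseudocount of 5 (0.46, adjusted p = 0.056).

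The members that widened included transcription factors and a secreted protein. DDIT3, known as CHOP, rose from 8.44, 8.21 and 11.1 to 84.0, 77.7 and 77.6 in WT and from 5.79, 5.30 and 5.67 to 32.4, 33.6 and 27.8 in HBBko, and lay lower in HBBko in every library of both stages (-0.70 ± 0.14, adjusted p = 0.0019). ATF5 gave -0.69 ± 0.10 (adjusted p = 0.00033), the secreted glycoprotein STC2 -1.29 ± 0.16 (adjusted p = 9.2e-05) and the translation brake EIF4EBP1 -0.57 ± 0.10 (adjusted p = 0.0012). The size of the change in STC2 rested on the scale: its means were 0.304 against 1.46 scaled TPM at 48 h and 1.72 against 11.5 at 5 d in HBBko and WT, 4.82-fold and 6.68-fold lower in HBBko, and the added pseudocount narrows the first gap more. In the authors' deposited tables STC2 went from -2.33 at 48 h to -2.75 at 5 d, a difference of -0.42. NUPR1, a small stress-induced protein, was under 2 scaled TPM in all 12 libraries (-0.77 ± 0.13, adjusted p = 0.00084).

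The promoter of CHAC1 is shown for its match to TGATGNAA, the composite site of C/EBP and ATF factors (250 bases before the start, GRCh38.p14, chr15:40953221-40953470, plus strand, the match on the opposite strand in capitals).
CHAC1: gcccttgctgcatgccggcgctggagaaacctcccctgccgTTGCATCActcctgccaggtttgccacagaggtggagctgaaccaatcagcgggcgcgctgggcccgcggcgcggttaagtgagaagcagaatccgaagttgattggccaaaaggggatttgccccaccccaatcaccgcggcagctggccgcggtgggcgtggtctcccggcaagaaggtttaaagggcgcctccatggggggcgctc
Among the 36 list members with a RefSeq promoter, 5 held such a match on either strand, against 3.19% of all promoters. Among those 5, ASNS and CHAC1 were called in the interaction, both with a narrowing gap, a share not above that of the whole list. There 21 of 41 tested genes were called, of which 12 rose and 9 fell.

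Cytosolic aminoacyl-tRNA synthetases, which charge tRNAs with amino acids and include several ATF4 targets, held more rises than falls. Of 19 tested, 9 rose in the interaction and 1 fell (median 0.21), and 16 rose after rescaling to equal sums. CARS was 28.3 scaled TPM in HBBko against 54.8 in WT at 48 h and 120.4 against 127 at 5 d (0.85 ± 0.11, adjusted p = 0.0001). MARS (0.49), TARS (0.43) and YARS (0.37) closed gaps in the same way, and IARS fell (-0.28 ± 0.06, adjusted p = 0.0029), a call lost after that rescaling.

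**Figure D4:**
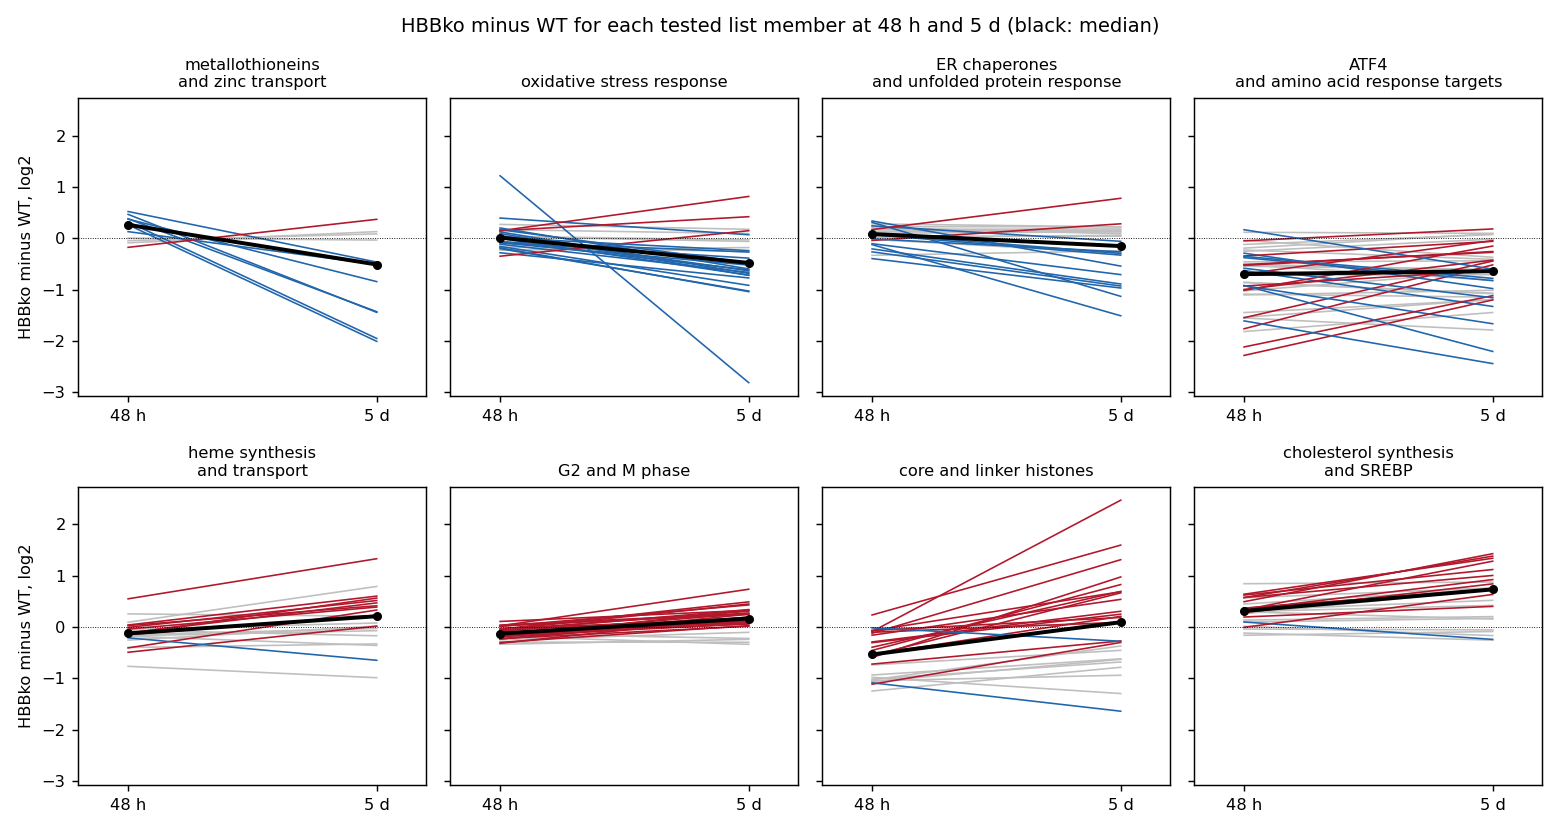
HBBko minus WT in log2(scaled TPM + 1) at 48 h and at 5 d for each tested member of 8 lists, with members called higher in red, called lower in blue and others in grey, and the list median in black. The medians of metallothioneins and antioxidant genes slope down, those of G2 and M phase, histone and heme synthesis genes slope up, and the ATF4 list holds lines of both directions.

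Genes of heme synthesis held more rises than falls. Of 21 tested genes of heme synthesis and transport, 10 rose in the interaction and 1 fell (median 0.38), and 3 fell without replicate 3 of WT at 48 h. At 48 h 2 were higher and 9 lower in HBBko, and at 5 d 11 higher and 5 lower. ALAD, the second enzyme of the pathway, was 201, 201 and 236 scaled TPM in WT and 157, 159 and 164 in HBBko at 48 h, and 366, 369 and 367 and 436, 453 and 501 at 5 d. HBBko was below WT in every library at 48 h and above it in every library at 5 d (0.74 ± 0.09, adjusted p = 6.5e-05). UROS (0.52) and PPOX (0.69 ± 0.06, adjusted p = 1.1e-05), later enzymes of the pathway, rose as well, as did the mitochondrial porphyrin carrier TMEM14C (0.56 ± 0.08, adjusted p = 0.00029) and the heme exporter FLVCR1 (0.78). GLRX5, of iron-sulfur cluster assembly, fell (-0.44 ± 0.05, adjusted p = 5.7e-05).

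Iron handling was split. Of 20 tested genes 6 rose and 9 fell (median -0.14), and 7 rose and 4 fell after rescaling to equal sums (median 0.05). The transferrin receptor TFRC was lower in HBBko at 48 h (1447 against 1814) and overlapped WT at 5 d (0.37 ± 0.06, adjusted p = 0.00034). The erythroid hormone ERFE, which holds down hepcidin, narrowed likewise (0.60 ± 0.10, adjusted p = 0.00074). The scaffold ISCU fell (-0.66 ± 0.06, adjusted p = 7.8e-06).

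Genes of the red cell membrane were called about as often (38.2%) as all tested genes (36%), and rises outnumbered falls. Of 34 tested, 11 rose and 2 fell (median 0.08). After rescaling to equal sums 23 rose, and without replicate 3 of WT at 48 h 12 rose and 4 fell (median 0.0040). The water channel AQP1 was 134, 138 and 169 in WT and 82.4, 83.5 and 86.3 in HBBko at 48 h, and 405, 421 and 414 and 472, 472 and 508 at 5 d. HBBko thus lay below WT at 48 h and above it at 5 d in every library (1.02 ± 0.10, adjusted p = 1.5e-05). The skeleton protein ADD2 (0.73), the Kell protein KEL (0.64) and glycophorin B, GYPB (0.85, a gene with close copies, so that its share of reads is uncertain), rose. CD44, an adhesion receptor lost with maturation, fell (-0.31), without a call after that rescaling (-0.11).

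Late erythroid maturation genes held both directions near the background. Of 44 tested, 10 rose and 9 fell (median 0.07), and 26 rose after rescaling to equal sums. The ubiquitin ligase TRIM10 rose (0.97 ± 0.23, adjusted p = 0.0065). RIOK3, a kinase induced late in maturation, climbed from 55.2 to 357 scaled TPM in WT and from 41.4 to 172 in HBBko (-0.65 ± 0.09, adjusted p = 0.00027). The kinase PIM1 (-0.41), the nuclear exporter XPO7 (-0.67) and the mitophagy receptor BNIP3L (-0.39) fell too, BNIP3L without a call after that rescaling (-0.19). Early progenitor genes were few, with 2 rising and 3 falling of 11 tested. Of 24 tested genes of nuclear condensation and enucleation 8 rose and 5 fell, among them the small GTPase RAC2 (0.76 ± 0.07, adjusted p = 1.4e-05) and the histone methyltransferase KMT5A (0.43 ± 0.05, adjusted p = 6.9e-05) upward.

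Genes of G2 and mitosis had the largest share of rises of any list with more than 2 tested genes. Of 30 tested, 25 rose in the interaction by limma and 0 fell, with 1 falling at an unadjusted p under 0.05 (median 0.25). At 48 h 17 were lower and 0 higher in HBBko, also 0 unadjusted, and at 5 d 19 were higher and 4 lower. The changes were small: the largest among the named members was CDC25C, the phosphatase that opens mitosis. It stood at 14.7, 15.5 and 16.1 scaled TPM in WT and 15.1, 16.6 and 15.4 in HBBko at 48 h, and at 21.7, 22.3 and 22.0 and 35.7, 38.1 and 38.2 at 5 d. The lines overlapped at 48 h and were apart at 5 d (0.71 ± 0.07, adjusted p = 1.7e-05).

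Cyclin B1, CCNB1, fell in WT from 224, 233 and 223 to 162, 169 and 163 and was 213, 226 and 218 and then 219.8, 224 and 231 in HBBko (0.50 ± 0.05, adjusted p = 1.5e-05). PLK1, a mitotic kinase, changed the sign of its gap, from 101 against 119 at 48 h to 138 against 116 at 5 d (0.48 ± 0.05, adjusted p = 1.7e-05). The centromere histone CENPA gave 0.53 ± 0.05 (adjusted p = 1.2e-05).

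Many promoters of such genes carry a cell cycle homology region, TTTGAA, close to the start, through which the DREAM complex acts. Those of PLK1 and CCNB2 are shown because both genes rose together and the element lies at the same place. The runs are the 100 bases before the start (GRCh38.p14; PLK1 chr16:23678789-23678888, plus strand; CCNB2 chr15:59105046-59105145, plus strand), with TTTGAA in capitals.
PLK1: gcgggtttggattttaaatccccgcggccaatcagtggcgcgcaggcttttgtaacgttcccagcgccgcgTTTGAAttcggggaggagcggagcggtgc
CCNB2: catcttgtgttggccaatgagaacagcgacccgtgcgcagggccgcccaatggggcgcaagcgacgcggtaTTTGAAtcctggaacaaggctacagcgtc
The match began 29 bases before the start in both. Within 250 bases 14 of the 24 list members with a RefSeq promoter held TTTGAA on either strand, against 13.6% of all promoters. Some of these matches lay farther from the start than those shown. Of those 14 members 11 were called, all higher, a share not above that of the whole list (25 of 30).

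Genes of S phase and DNA replication leaned the other way. Of 34 tested, 2 rose and 13 fell (median -0.13). That direction rested on the scaling, since 9 rose and 1 fell after rescaling to equal sums (median 0.06 against 0.16 over all genes). E2F1, the transcription factor that opens S phase, was 37.4, 34.9 and 40.6 in WT and 36.0, 34.2 and 36.1 in HBBko at 48 h, and 177, 151 and 176 and 108, 94.7 and 96.6 at 5 d, lower in every HBBko library at the later stage (-0.66 ± 0.10, adjusted p = 0.00034). TYMS, which makes thymidylate, gave -0.25 ± 0.04 (adjusted p = 0.00072), and its call was lost after that rescaling (-0.06). Cyclin E1, CCNE1, rose (0.38 ± 0.09, adjusted p = 0.008), a call lost in the fit to all 18 libraries (adjusted p = 0.066).

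CDKN1A (chromosome 6, 36676460 to 36687339, plus strand) encodes p21, an inhibitor of cyclin-dependent kinases, and had the most negative interaction after HMOX1 among the genes named here. It stood at 1.04, 0.589 and 1.32 scaled TPM in WT and 3.15, 2.25 and 2.35 in HBBko at 48 h, and at 15.5, 14.4 and 17.5 and 4.71, 3.25 and 2.91 at 5 d. All HBBko libraries were above WT at 48 h and below it at 5 d. The interaction was -2.74 ± 0.23 (adjusted p = 7.9e-06). The list of arrest genes and p53 targets as a whole did not share it: of 25 tested, CDKN1A among them, 6 rose and 5 fell, close to the background. TP53INP1 rose (0.84 ± 0.07, adjusted p = 8e-06), BAX, which opens the apoptotic pathway, fell (-0.48 ± 0.09, adjusted p = 0.0013), and RB1, the retinoblastoma protein, fell (-0.35), without a call after rescaling to equal sums (-0.15).

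Most histone genes tested rose in HBBko relative to WT. Of 27 tested, 16 rose and 2 fell (median 0.56), with 15 lower and 0 higher in HBBko at 48 h by limma (also 0 unadjusted) and 11 higher and 9 lower at 5 d. The linker histone gene HIST1H1C had the largest positive interaction of all genes named here. Its levels were 31.2, 29.1 and 41.7 in WT and 32.7, 28.9 and 33.2 in HBBko at 48 h, and 64.5, 63.3 and 72.6 and 322, 338 and 484 at 5 d. The lines overlapped at 48 h, and HBBko was 5.71-fold higher at 5 d (2.56 ± 0.21, adjusted p = 7.5e-06).

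HIST1H2AC (1.43 ± 0.14, adjusted p = 2e-05), HIST1H3H (1.57 ± 0.18, adjusted p = 5e-05) and HIST1H2BC (1.09 ± 0.15, adjusted p = 0.00022) were low, with no library above 15 scaled TPM, and rose too. HIST1H2AI gave 1.70 ± 0.29 (adjusted p = 0.00075), and HIST2H2AA4, which has an identical neighbouring copy and is uncertain for that reason, 1.55 ± 0.19 (adjusted p = 8.8e-05). The replication-independent H3F3B (-0.26) fell, without a call after rescaling to equal sums (-0.07), and HIST1H4C fell narrowly (-0.55 ± 0.20, adjusted p = 0.049), a call lost in 8 of the 12 fits that leave out 1 library, down to -0.44 (adjusted p = 0.11) without replicate 3 of HBBko at 5 d. Most canonical histone transcripts lack a poly(A) tail. In libraries made by selecting for that tail their level need not follow their level in the cell, and that was not tested.

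**Figure D5:**
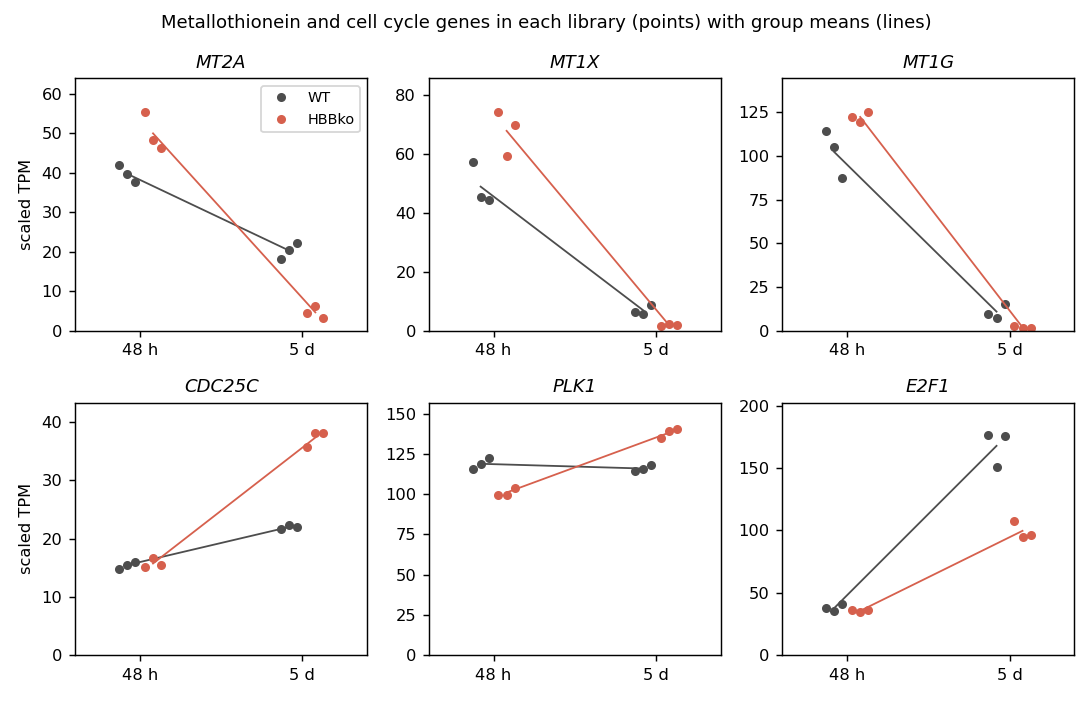
Scaled TPM of 3 metallothionein genes and 3 cell cycle genes in each of the 12 libraries (points; grey WT, red HBBko) with lines joining the group means, all axes from 0. MT2A, MT1X, MT1G and PLK1 cross between the stages. MT1X and MT1G fall close to 0 in HBBko at 5 d, CDC25C and PLK1 end higher in HBBko and E2F1 ends lower.

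Cytosolic chaperones were already higher in HBBko at 48 h and the gap widened for some. Of 28 tested, 24 were higher in HBBko at 48 h and 22 at 5 d. In the interaction 10 rose and 3 fell (median 0.12), and 20 rose after rescaling to equal sums. The co-chaperone BAG3, which steers misfolded proteins to autophagy, was 13.4, 14.2 and 13.4 in WT and 16.7, 16.7 and 16.1 in HBBko at 48 h, and 9.93, 8.86 and 9.28 and 27.6, 23.0 and 25.7 at 5 d. It fell in WT and rose in HBBko (1.09 ± 0.09, adjusted p = 7.5e-06). HSP90AB1 (0.37 ± 0.06, adjusted p = 0.00045) and the chaperonin subunits CCT3 (0.52 ± 0.05, adjusted p = 1.1e-05) and CCT4 (0.30) rose as well, and the mitochondrial chaperonin HSPD1 fell (-0.28 ± 0.06, adjusted p = 0.0022), a call lost after that rescaling.

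Among proteasome and ribosomal protein genes rises outnumbered falls, and their medians were small. Of 37 tested proteasome genes 17 rose and 3 fell (median 0.15), and 30 rose after rescaling to equal sums, 11 without replicate 2 of WT at 48 h and 7 in a fit to all 18 libraries. PSMB7 was 195 against 183 scaled TPM at 48 h and 177 against 126 at 5 d in HBBko and WT (0.39 ± 0.04, adjusted p = 2.1e-05). Of 78 tested cytosolic ribosomal protein genes 42 rose and 2 fell (median 0.19), with 71 rising after rescaling to equal sums and 18 in the fit to all 18 libraries. RPL23 fell in both lines, from 1329, 1352 and 1258 to 273, 277 and 294 in WT and from 1389, 1420.0 and 1461 to 489, 470.1 and 504 in HBBko, where it ended higher in every library (0.68 ± 0.06, adjusted p = 9.1e-06). The 2 that fell were RPS7 (-1.06 ± 0.16, adjusted p = 0.00035) and RPS27 (-0.43 ± 0.09, adjusted p = 0.0023), which were listed at under 37 scaled TPM in all 12 libraries, and RPS27 lost its call after that rescaling (-0.23). In the authors' deposited tables both hardly changed between the stages and in the other direction, RPS7 from -0.03 at 48 h to 0.01 at 5 d and RPS27 from -0.11 to -0.05, so their falls here are uncertain. Genes of ribosome biogenesis were near the background, with 4 rising and 7 falling of 32. Their split was unstable: 12 rose and 1 fell after rescaling to equal sums, 9 rose and 6 fell with library weights, 5 rose and 4 fell without replicate 3 of WT at 48 h, and 2 rose and 3 fell in the fit to all 18 libraries. The assembly factor RRS1 rose (0.43) and HEATR1, of ribosomal RNA transcription, fell (-0.66 ± 0.09, adjusted p = 0.00023).

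Nuclear genes of the respiratory chain had a median change between the stages of -0.88 in WT and -0.74 in HBBko. Of 36 tested nuclear genes 14 rose in the interaction and 1 fell (median 0.10), and 28 rose after rescaling to equal sums. ATP5MC1, of the ATP synthase ring, was 265 and 324 scaled TPM at 48 h and 39.4 and 77.2 at 5 d in WT and HBBko (0.67 ± 0.08, adjusted p = 5.8e-05). Of 13 mitochondrially encoded genes, 3 rose and 0 fell by limma, also 0 unadjusted (median 0.21), and 12 rose without replicate 1 of HBBko at 5 d and 6 with the libraries paired by number within each stage. At 48 h 10 of the 13 were already higher and 0 lower in HBBko by limma (also 0 unadjusted), and all 13 were higher at 5 d. MT-ND1 gave 0.57 ± 0.12 (adjusted p = 0.0034).

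Genes of cholesterol synthesis were higher in HBBko at 48 h and about as many at 5 d, by a larger median difference. Of 27 tested genes 18 were higher and 0 lower at 48 h by limma, with 2 lower at an unadjusted p under 0.05 and a median difference of 0.31, and at 5 d 19 were higher and 3 lower, with a median of 0.73. In the interaction 13 rose and 1 fell (median 0.30). SQLE, squalene epoxidase, fell in WT from 90.7, 90.0 and 86.1 to 47.1, 34.8 and 45.3 and was 128, 122 and 127 and then 128, 93.4 and 128 in HBBko, above WT in every library (0.94 ± 0.17, adjusted p = 0.0011). MVK (0.95 ± 0.11, adjusted p = 6.8e-05) and MVD (0.59 ± 0.09, adjusted p = 0.00053) of the mevalonate steps rose. FDFT1, squalene synthase, fell (-0.34 ± 0.07, adjusted p = 0.0019), without a call after rescaling to equal sums (-0.14).

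Among glycolytic genes falls outnumbered rises. Of 31 tested genes of glycolysis and the hypoxia response 2 rose and 13 fell (median -0.18), with 15 higher and 5 lower in HBBko at 48 h and 11 higher and 13 lower at 5 d. After rescaling to equal sums 6 rose and 10 fell. Aldolase A, ALDOA, was 683, 656 and 618 in WT and 753, 726 and 753 in HBBko at 48 h, and 368, 354 and 382 and 315, 305 and 312 at 5 d. HBBko was above WT at 48 h and below it at 5 d in every library (-0.43 ± 0.06, adjusted p = 0.00014). The phosphofructokinase isoform PFKP (-1.18 ± 0.18, adjusted p = 0.00034) and PFKFB3, which makes its activator (-1.22 ± 0.17, adjusted p = 0.00022), fell, and the red cell pyruvate kinase PKLR rose (0.69 ± 0.11, adjusted p = 0.00053).

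Of 33 tested autophagy genes 3 rose and 9 fell (median -0.04), and 10 rose and 2 fell after rescaling to equal sums (median 0.16). With the pairing by number within each stage 5 autophagy genes rose. MAP1LC3B, which coats autophagosomes, was 100.3 in WT and 62.4 in HBBko at 5 d (-0.58 ± 0.07, adjusted p = 5.4e-05), while its relative MAP1LC3A rose (0.54 ± 0.10, adjusted p = 0.0014). Of 15 tested interferon response genes 3 rose and 1 fell. Immediate early genes were near the background, with 4 rising and 5 falling of 21. JUN rose in WT from 1.88, 1.71 and 2.19 scaled TPM to 8.39, 7.90 and 9.93 and in HBBko from 1.73, 1.66 and 1.46 to 3.13, 2.52 and 2.32 (-1.25 ± 0.15, adjusted p = 6.2e-05), EGR1 gave -1.33 ± 0.20 (adjusted p = 0.00036), and DUSP6, which dampens ERK, rose (1.08 ± 0.17, adjusted p = 0.00041). MYC, the driver of growth, fell in both lines and less in HBBko (63.3 in WT and 104 in HBBko at 5 d, from 295 and 295; interaction 0.70 ± 0.07, adjusted p = 2.7e-05).

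Genes outside the lists were among the most changed. The small GTPase RHOC was 4.31, 4.26 and 4.06 in WT and 3.54, 3.69 and 3.52 in HBBko at 48 h, and 18.5, 16.3 and 23.6 and 3.68, 3.81 and 3.54 at 5 d, so it rose in WT alone (-1.93 ± 0.14, adjusted p = 4e-06). Cardiac troponin I, TNNI3 (-1.86 ± 0.24, adjusted p = 0.00012), followed the same course, while the focal adhesion protein VCL (-1.79 ± 0.11, adjusted p = 1.3e-06) and glycogen phosphorylase B, PYGB (-1.88 ± 0.15, adjusted p = 6.7e-06), rose in WT and fell in HBBko. IFI30, a lysosomal thiol reductase, rose in WT from 23.3, 24.2 and 26.7 to 58.6, 54.9 and 61.1 and fell in HBBko from 20.8, 21.6 and 22.1 to 11.7, 12.1 and 13.4 (-1.95 ± 0.09, adjusted p = 1.7e-07). TMEM123, a membrane glycoprotein, fell slightly in WT, from a mean of 18.5 to 16.8 scaled TPM, and in HBBko from 20.1 to 4.45 (-1.82 ± 0.08, adjusted p = 1.7e-07). PRPSAP1, which associates with phosphoribosyl pyrophosphate synthetase, gave -1.33 ± 0.07 (adjusted p = 3.3e-07).

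Among those that rose, TSPAN32, a tetraspanin of blood cells, was 53.9, 52.4 and 52.9 in WT and 64.0, 56.7 and 53.2 in HBBko at 48 h, and 23.4, 32.3 and 23.0 and 87.0, 105 and 101 at 5 d. It fell in WT and rose in HBBko (1.75 ± 0.16, adjusted p = 1.3e-05). FTCD, of histidine breakdown, gave 1.93 ± 0.24 (adjusted p = 9.7e-05), the corepressor RUNX1T1 1.68 ± 0.17 (adjusted p = 2.4e-05), the actin bundler ESPN 1.15 ± 0.07 (adjusted p = 1.3e-06) and the exporter ABCC5 0.66 ± 0.05 (adjusted p = 3.7e-06). CTSH, a cathepsin, was higher in WT at 48 h (4.90 against 1.13 scaled TPM) and lower in WT at 5 d (0.33 against 0.821), at levels near or under 1 in the second case (1.92 ± 0.12, adjusted p = 1.3e-06). EYA4, a transcriptional coactivator present almost only in HBBko, had a gap that narrowed (0.341 and 10.8 scaled TPM in WT and HBBko at 48 h, 0.296 and 3.55 at 5 d; -1.33 ± 0.13, adjusted p = 1.5e-05). Other genes with large changes were pseudogenes, readthrough genes or transcripts with no gene name of their own: upward AC018638.3, listed at 0 in all 6 libraries at 48 h, AC010323.1, AC016629.1 and PPT2-EGFL8, and downward ALG1L13P, AC105052.3 and TMSB4XP6. AC010323.1, AC016629.1 and PPT2-EGFL8 each lost their call in at least 4 of the 12 fits that leave out 1 library, down to 1.59 (adjusted p = 0.053) for AC010323.1 without replicate 2 of HBBko at 48 h, 1.47 (adjusted p = 0.082) for AC016629.1 without replicate 2 of HBBko at 5 d and 1.32 (adjusted p = 0.057) for PPT2-EGFL8 without replicate 3 of HBBko at 48 h.

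The authors' deposited tables give a log2 fold change between the lines at each stage for most of these genes. Of 3971 called genes with a value in both of the authors' deposited tables, 3949 (99.4%) had the same direction of change from 48 h to 5 d there, including 209 of 211 with a change of at least 2-fold. The 2 exceptions were RPS7 and ULBP1, the second named here after its values had been seen. Those tables were made from the same libraries and are no independent support. In the authors' deposited tables HMOX1 went from 1.34 at 48 h to -2.91 at 5 d.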

How the data were processed

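RNA from HUDEP-2 cells was read as RNA-seq in 18 libraries, of which the 12 at 48 h and 5 d were used and the 6 undifferentiated ones entered 1 alternative only. Per the submitters' processing notes, the authors used kallisto and sleuth with hg38, with no version given in the sources used here. The deposited signal is TPM that the authors scaled again between libraries, by a step not stated. The authors' deposited tables of the comparisons at 48 h and 5 d give log2 fold changes with standard errors. Depth is unknown, since the files used hold no counts.

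The filter of 1 scaled TPM in 3 of 12 libraries was applied first, and values were taken to log2(scaled TPM + 1), which understates differences of low genes and so alters the interaction of genes that are low at 1 stage. limma 3.58.1 in R 4.3.3 fitted a mean for each of the 4 groups (8 residual degrees of freedom) and moderated the variances with an intensity trend. Two-sided tests were adjusted by the Benjamini-Hochberg method over 11407 genes and called under 0.05. All adjusted p values are from this fit or its alternatives, and the fit was tested on simulated data. Summaries used Python 3.11.15 and pandas 2.3.3, and figures matplotlib 3.10.9.

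The members and the 34 gene lists were chosen with earlier results of these data known. Of 934 list symbols 930 matched, 45 through older symbols. Named genes were the 15 with the largest called change in each direction among those with a group mean of at least 5 scaled TPM, 20 genes of prior interest, up to 4 called members of each list in each direction by adjusted p, the 5 smallest adjusted p in each direction and the 10 largest changes among genes of opposite sign at the 2 stages. That named 215 genes, some of which are not reported here, and 16 list members were added after their values had been seen. Gene coordinates are GENCODE release 29 on GRCh38, and promoters are RefSeq's on GRCh38.p14. Alternatives changed the pseudocount, filter, scaling, libraries, variance model or replicate block, 1 at a time. Replicate numbers come from the labels, which do not say what they share. Deviations of same-number WT and HBBko libraries correlated at 0.14 to 0.19 at 5 d, against -0.14 to -0.01 for different numbers. At 48 h they correlated at -0.04 to 0.02, against -0.04 to 0.05. Within HBBko, same-number libraries of the 2 stages correlated weakly, at 0.04 to 0.10, against -0.05 to 0.01 for different numbers. Within WT these ranges were -0.09 to 0.04 and -0.07 to 0.06. Pairing by number was thus clearest between the lines at 5 d.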

Additional observations from a re-analysis of the deposited data

Results flagged for a closer look

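The genotype effect at 5 d differed from that at 48 h, by the interaction test, in 4106 of 11407 genes. Among the named genes, 26 had called differences between HBBko and WT of opposite sign at the 2 stages, so that the direction of the genotype effect depended on the stage. With 3 libraries in a group, single libraries were not tested as outliers.

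HBBko was above WT at 48 h and below it at 5 d for HMOX1 (interaction -4.03), CDKN1A (-2.74), MT1X (-1.91), HSPA5 (-1.44), MANF (-0.88), GSR (-0.80), HEATR1 (-0.66), DKC1 (-0.26), ALDOA (-0.43), PFKP (-1.18), CLU (-1.77) and UGDH (-1.49). CLU, the secreted chaperone clusterin, was low throughout, at 0.67, 0.43 and 0.453 scaled TPM in WT and 1.84, 0.985 and 1.63 in HBBko at 48 h and 0.992, 1.21 and 2.49 and 0.121, 0.299 and 0.132 at 5 d. UGDH, which makes UDP-glucuronate, was 1.46, 1.57 and 1.74 and 2.18, 2.05 and 2.72 at 48 h and 3.45, 2.61 and 3.77 and 0.817, 0.887 and 1.09 at 5 d.

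HBBko was below WT at 48 h and above it at 5 d for HIST1H2AI (1.70), HIST1H3H (1.57), HIST1H2BC (1.09), PRDX2 (0.50), PPOX (0.69), ALAD (0.74), STEAP3 (0.49), AQP1 (1.02), GYPB (0.85), PLK1 (0.48), TP53INP1 (0.84), KMT5A (0.43), NCAPD2 (0.44) and CTSH (1.92). STEAP3, the ferrireductase that frees iron for the cell, was 46.9, 46.4 and 47.5 scaled TPM in WT and 37.9, 38.0 and 39.5 in HBBko at 48 h, and 28.0, 30.9 and 30.0 and 33.2, 33.8 and 36.6 at 5 d. NCAPD2, a condensin subunit, was 108, 116 and 113 and 95.7, 104 and 100.4 at 48 h and 95.1, 100.5 and 94.9 and 120.0, 115 and 117 at 5 d.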

How the results depend on the processing

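The number of genes with a changed genotype effect stayed within 1.5 times of 4106 under all 26 alternatives, from 2937 in a fit to all 18 libraries to 5017 after rescaling to equal sums. Only that rescaling moved the split by direction beyond that range, to 4013 higher and 1004 lower. Leaving out 1 library gave 3402 to 4178 genes, 1629 to 2095 of them higher and 1773 to 2083 lower. A replicate block gave 4208 genes and a block within each line 3826. Across both stages pairing by number was weak. Of 18 same-number pairs 3 had correlated deviations above 0.1, and 0 of 6 within a line, although 10 of 12 libraries correlated best with their own number. Those 3 were the WT and HBBko pairs at 5 d, so a replicate block within each stage was added after seeing the data. It gave 4405 genes, 2150 higher and 2255 lower, gained HBB and EIF2AK1 and lost KIT, PFKM and MT1A among the named genes, with PFKM at an adjusted p of 0.053. Between the lines it gave 3589 genes at 48 h and 7097 at 5 d. With the block over all libraries HBB was gained as well (adjusted p = 0.026). The signs of 6 named genes turned, of which PSMA7 and PSMD7 had been called. After rescaling to equal sums MYB stood at 0.039, ZBTB7A at 0.18, EIF2AK1 at 0.0067, PSMA7 at 0.026 and PSMD7 at 0.010. Under quantile normalization ZBTB7A stood at 0.11 and KLF1 at -0.089, while HBA1, HBA2 and HBB stood at 0, with no direction. ZBTB7A was also 0.018 with globins removed, and it ranged from -0.067 without replicate 3 of HBBko at 5 d to 0.046 without replicate 2 of HBBko at 5 d. The cause was not tested. Rescaling to equal sums moved the median interaction of all genes from 0.01 to 0.16. Depth cannot be judged without counts.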
